A study of Mus musculus with 8 samples.

Results

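The change in gene expression from day 0 to day 4 of embryoid body (EB) differentiation was compared between WT and CTCF-K20R mouse embryonic stem cells (mESCs). For each gene, the response of a line was the log2 ratio of its day 4 level to its day 0 level, with a pseudocount of 1 added to each level. The difference in response was the CTCF-K20R response minus the WT response, so a negative value marks a gene whose level went up less, or went down more, in CTCF-K20R. All 8 of the 8 libraries of the series enter this difference. Of 18094 genes in the table, 15767 averaged 10 normalized counts or more across all libraries and entered the test.

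The 4 groups were WT mESCs at day 0, CTCF-K20R mESCs at day 0, WT EBs at day 4 and CTCF-K20R EBs at day 4, with 2 libraries each. Both lines are E14Tg2A, a mouse embryonic stem cell line. In CTCF-K20R the lysine at position 20 of CTCF had been changed to arginine by CRISPR/Cas9 editing, so that this residue could no longer be acetylated. The mESCs were grown on mitomycin C-inactivated mouse embryo fibroblasts with LIF and the inhibitors CHIR99021 and PD0325901. The EBs were formed in hanging drops with serum and without LIF, and the study names no inhibitors for that medium. The day therefore also separates feeder culture from hanging drops. It likewise separates the mESC medium from the EB medium. The number of CTCF-K20R clones is not given in the sources used here, so the mutation and a difference between clones or cultures cannot be told apart. The study describes the libraries of a group as biological replicates from independent experiments, and the labels name no separate cultures. The p-values therefore measure only the spread between these libraries, which may be technical.

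CTCF is a zinc finger protein that binds DNA at a long motif and, with the cohesin ring, shapes chromatin loops. When mESCs leave the self-renewing state as EBs, the naive pluripotency genes are shut off, the cells pass through a formative, epiblast-like state, and Nodal, Wnt and BMP signals induce the T-box factors T and Eomes in a population like the primitive streak of the embryo. From there cells lose epithelial features, migrate, and become mesoderm or definitive endoderm. 4 genes of this programme are shown with the 250 bases before their RefSeq start (build GRCm38.p6, 5′ to 3′ on the strand of the gene), because their windows hold a letter match to a motif of the factors acting at the streak. Capitals mark CTTTGAA or CTTTGAT, forms of the TCF/LEF motif through which Wnt signals act, on either strand, and in Msgn1 also 1 match to CCACNAGGG, a piece of the CTCF core motif. A match on the other strand appears as its reverse complement. TCACACCT, a motif of T-box factors, was searched too and is in none of these 4 sequences, and no marked matches overlap.
T, a T-box factor of the streak, chr17:8434173-8434422, plus strand: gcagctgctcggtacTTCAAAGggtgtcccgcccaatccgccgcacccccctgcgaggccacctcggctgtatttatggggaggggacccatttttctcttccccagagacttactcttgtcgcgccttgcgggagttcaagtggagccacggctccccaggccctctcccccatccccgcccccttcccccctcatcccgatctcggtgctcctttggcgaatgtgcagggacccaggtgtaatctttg
Mesp1, a factor of nascent cardiac mesoderm, chr7:79793591-79793840, minus strand: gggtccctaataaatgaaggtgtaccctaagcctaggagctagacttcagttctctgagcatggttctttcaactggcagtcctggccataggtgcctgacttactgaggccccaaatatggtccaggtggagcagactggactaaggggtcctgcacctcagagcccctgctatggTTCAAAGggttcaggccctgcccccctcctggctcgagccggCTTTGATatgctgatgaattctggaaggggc
Msgn1, a factor of presomitic mesoderm, chr12:11208949-11209198, minus strand: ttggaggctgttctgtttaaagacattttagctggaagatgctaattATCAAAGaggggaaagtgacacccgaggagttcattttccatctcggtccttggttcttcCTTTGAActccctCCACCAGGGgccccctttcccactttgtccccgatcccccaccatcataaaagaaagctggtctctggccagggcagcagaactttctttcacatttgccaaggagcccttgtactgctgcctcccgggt
Sp5, a zinc finger factor and direct Wnt target, chr2:70474673-70474922, plus strand: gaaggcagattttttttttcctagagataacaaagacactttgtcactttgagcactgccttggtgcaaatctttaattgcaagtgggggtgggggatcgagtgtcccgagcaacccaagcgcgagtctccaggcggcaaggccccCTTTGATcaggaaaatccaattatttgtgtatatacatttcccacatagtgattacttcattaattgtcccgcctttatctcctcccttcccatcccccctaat
In windows of 300 bases around all RefSeq starts (250 before to 50 after), 8.65% of 32851 windows hold either TCF/LEF form, 1.45% hold CCACNAGGG and 1.28% hold TCACACCT. Aass and Cxcl12, whose responses differed in the other direction, hold a TCF/LEF form too, and no TCF/LEF form or TCACACCT lies in the 250 bases before the starts of Eomes, Lhx1, Gsc, Evx1, Tbx6, Mesp2 and Utf1. A match is a description of letters and not a binding site.

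The libraries held between 19412659 and 21311513 normalized counts, and the limit of detection used here, about 3 reads at the commonest low value of a library, was 2.43 to 3.44 normalized counts. The 2 WT libraries of each day differed by less than the sampling noise (mean squared difference 0.314 times the noise at day 0 and 0.278 times at day 4, against 3.998 and 4.362 times in CTCF-K20R), so each WT pair was averaged and counted as 1 sample. The WT response therefore has no replicate check of its own and is given as values, and the test of the difference assumes that WT varies like CTCF-K20R. Ctcf itself stood at 3971 and 3938 in WT and 4610 and 4408 in CTCF-K20R at day 0, and 4241 and 4256 against 4926 and 4771 at day 4. Its difference in response was 0.00 ± 0.068, adjusted p = 0.99. All day 0 libraries held the mESC markers (Pou5f1 from 23485 to 24703 normalized counts), and the streak markers T, Eomes, Mixl1 and Mesp1 stood high in WT EBs. The Y-linked genes Ddx3y and Eif2s3y were low in CTCF-K20R on both days (652 and 663 in WT and 8.79 and 5.08 in CTCF-K20R at day 0, and 468 and 477 against 3.63 and 3.78 at day 4 for Ddx3y), and neither was called in the response.

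The response was higher in CTCF-K20R for 1079 genes (6.84% of those tested) and lower for 952 genes (6.04%), 12.9% in either direction, at an absolute log2 difference above 1 and an adjusted p under 0.05 in a limma fit of all genes. A list count below that lies near these shares of all genes tested says nothing particular about the list. Of the called genes, 975 of the higher and 932 of the lower were protein coding. The protein-coding share over all genes tested was not computed, so these counts say nothing particular about the called genes. The median difference over all genes tested was 0.02, with an interquartile range of -0.42 to 0.46 and a median SE of 0.216. Among called genes the median was 1.82 for those higher and -2.05 for those lower. Without regard to genotype calls, 2977 genes (18.9%) had a WT response above 1 and 2569 (16.3%) a WT response below -1, against 2512 and 2004 genes for the CTCF-K20R response. The median absolute response was 0.63 in WT and 0.49 in CTCF-K20R. With all 8 libraries taken as separate samples, 1709 genes were higher and 1631 lower. Without CTCF-K20R day 4 replicate 1 the counts were 499 and 410, and without replicate 2 they were 471 and 414, so the number of calls depends on having both of these libraries. In bulk samples such as these, fewer cells of a type and less RNA per cell cannot be told apart. A level at or under the limit of detection makes a ratio a lower bound, given as "at least", and the log2 difference of such a gene depends on the pseudocount and is no bound.

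**Figure D1:**
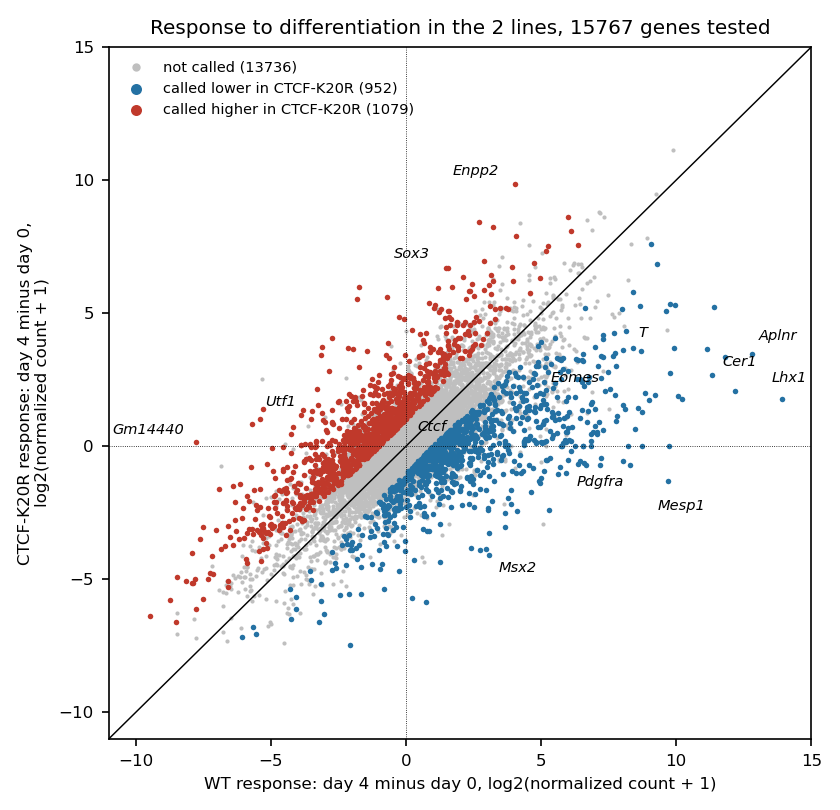
Response of each tested gene, log2 of day 4 over day 0, in WT (x axis) and CTCF-K20R (y axis), with the diagonal of equal response. The 952 genes called lower lie below the diagonal and the 1079 called higher lie above it, and the labelled streak genes sit at a large WT response and well below the diagonal.

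The 952 lower genes mostly went up in WT and less or not at all in CTCF-K20R. Counting a response beyond 1 in absolute value as a movement, with no test, 390 of them (41.0%) went up in WT and stayed within 1 in CTCF-K20R, 202 (21.2%) went up in both lines, and 142 (14.9%) stayed within 1 in WT and went down in CTCF-K20R. In 79 (8.3%) the lines moved in opposite directions. Of the 1079 higher genes, 353 (32.7%) went down in WT and stayed within 1 in CTCF-K20R, 231 (21.4%) went up in CTCF-K20R alone, 211 (19.6%) went down in both lines, and 63 (5.8%) went down in WT and up in CTCF-K20R. The same genes can be read by day. At day 0, 1.19% of all tested genes were called higher in CTCF-K20R than in WT and 2.6% lower, and at day 4 these shares were 6.89% and 8.65%. For 616 of the lower (64.7%) and 619 of the higher (57.4%), the lines differed by more than 1 at day 4 and not at day 0. These counts by day go by size alone, with no test. For 62 (6.5%) and 136 (12.6%) the lines differed by more than 1 at day 0 and not at day 4. A part of the differences in response therefore came from the starting level. A further 85 lower (8.9%) and 101 higher (9.4%) genes differed by more than 1 on both days with opposite signs.

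**Figure D2:**
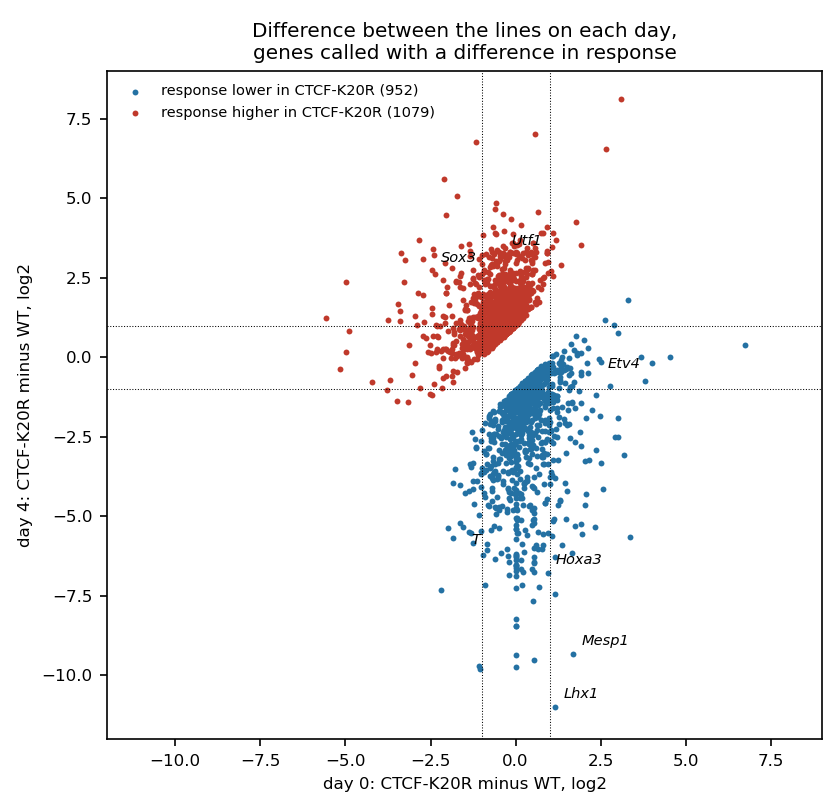
Difference between the lines (CTCF-K20R minus WT, log2) at day 0 (x axis) and at day 4 (y axis) for the genes called with a difference in response. The genes lie mainly along the vertical axis. The 62 lower and 136 higher genes where the lines differed at day 0 alone, by size with no test, lie along the horizontal axis.

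The factors of the primitive streak and mesendoderm went up in WT and far less in CTCF-K20R. The response was lower in 14 of 18 tested members (77.8%, against 6.04% of all genes tested) and higher in 0, with a median difference of -5.08 beside 0.02 over all genes. The median response of these members was 7.10 in WT and 0.41 in CTCF-K20R. The 14 became 11 with either CTCF-K20R day 4 library left out. T went from 73.2 and 72.6 to 20696 and 20904 in WT and from 25.1 and 24.1 to 520.3 and 515 in CTCF-K20R (difference -3.80 ± 0.19, adjusted p = 0.000305). T was 21.1-fold higher in CTCF-K20R EBs than in CTCF-K20R mESCs, and 40.2-fold lower than in WT EBs. Eomes, a T-box factor needed for mesoderm and definitive endoderm, went from 317 and 315 to 9931 and 9866 in WT and from 456 and 443 to 1845 and 1777 in CTCF-K20R (difference -2.96 ± 0.097, adjusted p = 0.000108). Its CTCF-K20R response was 2.01, and its level in CTCF-K20R EBs was 5.47-fold lower than in WT EBs. Mesp1, a basic helix-loop-helix factor of cardiac mesoderm, stood at 1.14 and 0.951 in WT and 5.57 and 5.61 in CTCF-K20R at day 0, and 1697 and 1693 against 2.40 and 1.07 at day 4 (difference -11.01 ± 0.76, adjusted p = 0.000754). Its WT level was at least 499-fold higher at day 4, while its CTCF-K20R level was under the limit of detection there.

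Lhx1, a LIM homeodomain factor of the anterior streak, had the lowest difference of all named genes. It went from 0 and 0 to 15499 and 15710 in WT and from 0.842 and 1.72 to 6.65 and 6.78 in CTCF-K20R (difference -12.14 ± 0.69, adjusted p = 0.000428), and at day 4 it was 2323-fold lower in CTCF-K20R than in WT. Msgn1 was 0 in all 4 CTCF-K20R libraries and reached 881 and 884 normalized counts in WT EBs (difference -8.75 ± 0.85, adjusted p = 0.00196). Mixl1, a homeobox factor of the streak, went from 7.92 and 8.51 to 3898 and 3889 in WT and from 14.1 and 27.6 to 60.6 and 40.3 in CTCF-K20R (difference -7.44 ± 0.68, adjusted p = 0.00165). Gsc, the organizer factor, went from 5.79 and 4.84 to 932 and 936 in WT and from 38.6 and 24.8 to 20.5 and 24.5 in CTCF-K20R (difference -7.66 ± 0.56, adjusted p = 0.000901). For each of these 4 genes, every CTCF-K20R EB library lay far below the WT EB libraries. Snai1, which represses epithelial genes, stood near its day 0 level in CTCF-K20R EBs and was 20.9-fold higher in WT EBs. The values of its libraries were 89.2 and 90.5 in WT and 103 and 80.9 in CTCF-K20R at day 0, and 1887 and 1872 against 85.2 and 116 at day 4 (difference -4.25 ± 0.38, adjusted p = 0.00156). Tbx6, a T-box factor of paraxial mesoderm, and Evx1 and Cited1 were also lower, with differences of -5.07, -7.50 and -4.59. Of the members that were not called, Fgf8 (difference -0.59, adjusted p = 0.539) and Wnt3 (-1.79, adjusted p = 0.124) went up in both lines, and Foxa2 varied between the CTCF-K20R day 0 libraries, with 0 and 12.02 normalized counts (difference -5.27 ± 1.99, adjusted p = 0.109). Tbx6 and Evx1 were not called without either CTCF-K20R day 4 library in turn (adjusted p of 0.0511 to 0.0925).

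Genes of cardiac progenitors and of mesenchyme followed with large differences. Of 21 tested cardiac progenitor and contractile genes, 9 were lower (42.9%, against 6.04% of all genes tested) and 0 higher (median difference -1.97). The lower count was 8 without CTCF-K20R day 4 replicate 1 and 6 without replicate 2. The higher count was 3 with the 8 libraries taken separately and 2 when the limma prior had no trend. Of 16 tested mesenchymal genes, 13 were lower (81.2%) and 0 higher, with a median difference of -2.44. The mesenchymal median response was 4.40 in WT and 0.34 in CTCF-K20R. The mesenchymal count was 9 without CTCF-K20R day 4 replicate 1 and 8 without replicate 2. Aplnr, the apelin receptor of early mesoderm, was 0 in all 4 day 0 libraries and reached 7254 and 7208 normalized counts in WT EBs against 11.4 and 8.75 in CTCF-K20R EBs (difference -9.36 ± 0.69, adjusted p = 0.000925). Pdgfra, a receptor of paraxial and cardiac mesoderm, went from 45.1 and 42.4 to 2731 and 2753 in WT and from 60.2 and 42.7 to 18.3 and 33.0 in CTCF-K20R (difference -6.95 ± 0.60, adjusted p = 0.00135). Its WT level was 62.7-fold higher at day 4 and its CTCF-K20R level was 2.01-fold lower. Gata6, a GATA factor of heart and endoderm, went from 6.90 and 7.69 to 1207 and 1205 in WT and from 13.5 and 11.2 to 4.69 and 10.7 in CTCF-K20R (difference -7.89 ± 0.77, adjusted p = 0.00202). Gata4 differed by -3.82, Isl1, a factor of the second heart field, by -4.36, and the heart factors Hand1 and Hand2 by -4.76 and -4.77. The contractile genes were at low levels. Myl7 was called (difference -2.59 ± 0.35, adjusted p = 0.00547), and Actc1 (-1.97 ± 0.65, adjusted p = 0.0773) and Nkx2-5 (-1.77 ± 0.75, adjusted p = 0.14) were not, while Actc1 was at 0 at day 0 and higher in every day 4 library. Tbx5 had responses near 0 in both lines (WT response 0.03, CTCF-K20R response -0.15). Myl7 was not called without either CTCF-K20R day 4 library in turn (adjusted p of 0.0532 to 0.0542). Gata4 and Isl1 were not called without CTCF-K20R day 4 replicate 2 (adjusted p of 0.0523 to 0.053). Isl1 and Hand2 were not called without CTCF-K20R day 0 replicate 1 (adjusted p of 0.0607 and 0.0668). Isl1 and Hand2 were not called without CTCF-K20R day 0 replicate 2 (adjusted p of 0.0541 and 0.0656).

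Cdh2, the N-cadherin of mesenchymal cells, went from 107 and 111 to 10643 and 10661 in WT and from 82.5 and 63.6 to 326 and 371 in CTCF-K20R (difference -4.35 ± 0.28, adjusted p = 0.000592). Cdh11, a cadherin of mesenchyme, went from 18.9 and 16.8 to 2681 and 2694 in WT and from 16.0 and 15.2 to 34.4 and 25.98 in CTCF-K20R (difference -6.26 ± 0.46, adjusted p = 0.000878). At day 4 Cdh2 was 97.7-fold higher in WT and 4.77-fold higher in CTCF-K20R, and for both genes no CTCF-K20R EB library came near a WT EB library. For Fn1, the fibronectin gene, the difference arose in another way. Its level went from 46708 and 47340 to 46096 and 46007 in WT and from 45080 and 44384 to 3602 and 3976 in CTCF-K20R (difference -3.53 ± 0.084, adjusted p = 7.39e-05). It was level across time in WT and 11.8-fold lower at day 4 in CTCF-K20R. Vim, a mesenchymal intermediate filament gene, had the same form at smaller size (WT response -0.09, CTCF-K20R response -1.70, difference -1.61 ± 0.26, adjusted p = 0.0101), while the level of Zeb1 went down in both lines and further in CTCF-K20R (difference -2.07). Twist1 and Foxc1, factors of mesenchyme, differed by -2.19 and -4.83, and Mmp2 was not called (0.07 ± 0.17, adjusted p = 0.781). Twist1 was not called without either CTCF-K20R day 4 library in turn (adjusted p of 0.0683 to 0.0756).

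**Figure D3:**
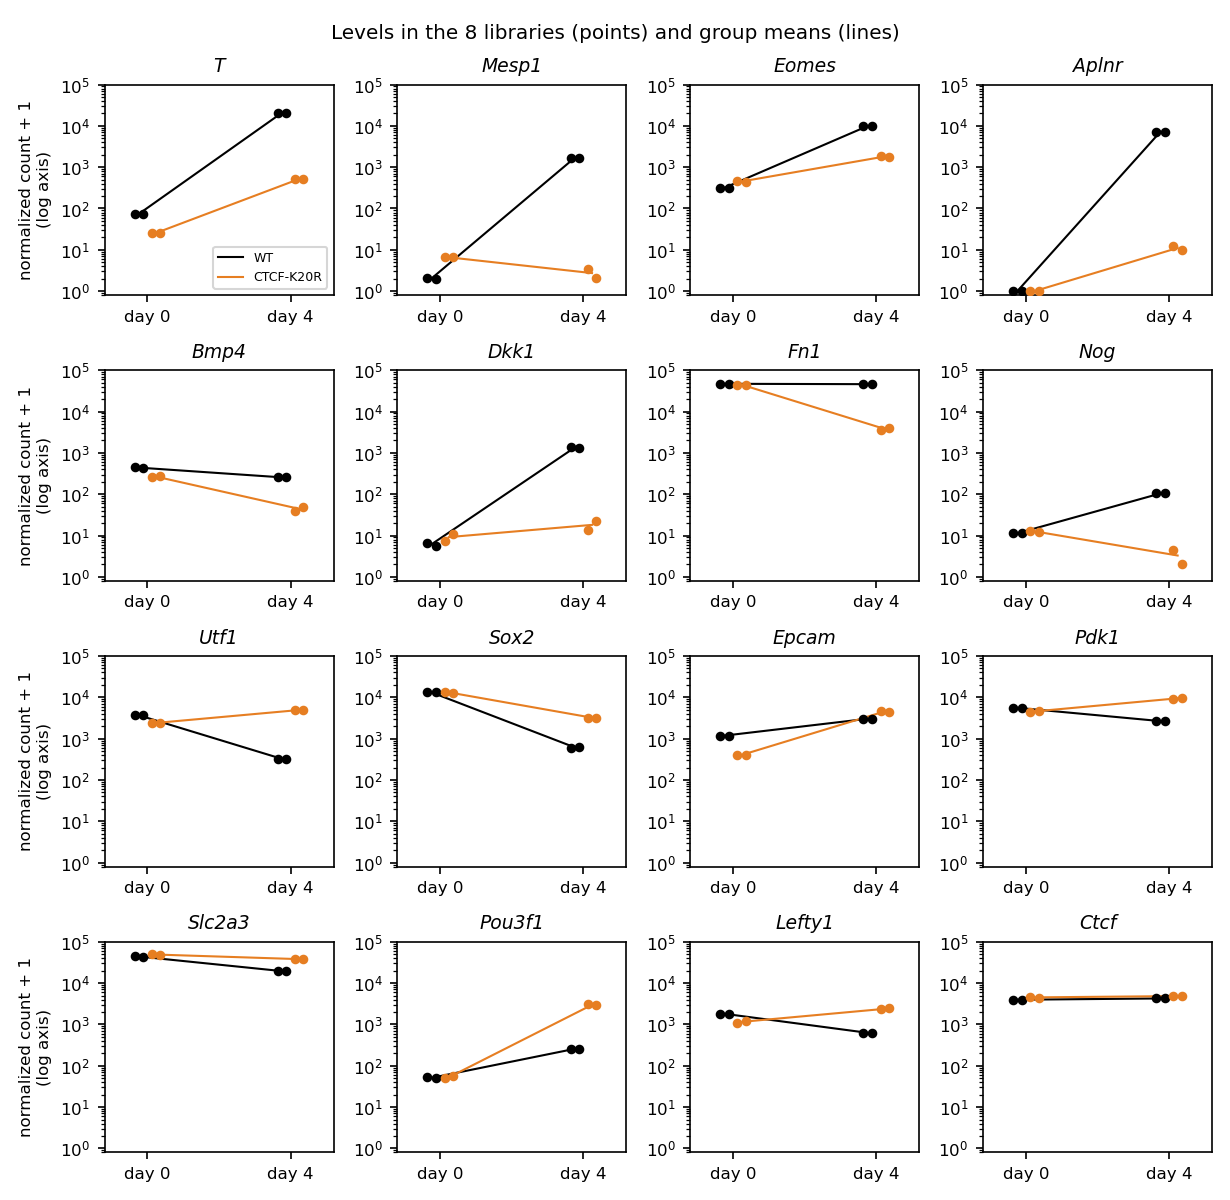
Normalized counts (log axis, each value plus 1) in each of the 8 libraries for 16 genes, by line and day. T, Mesp1, Eomes, Aplnr and Dkk1 stand higher in WT EBs than in the other groups, Fn1 is low in CTCF-K20R EBs alone, Utf1, Sox2 and Pou3f1 are higher in CTCF-K20R EBs than in WT EBs, and Ctcf is close to level.

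Genes of the blood and endothelial lineages had 3 of 16 tested members lower and 1 higher. The lower share was 18.8%, against 6.04% of all genes tested, and the higher share 6.2%, near the 6.84% of all genes. The higher count moved with CTCF-K20R day 0 replicate 1 left out. Kdr, the VEGF receptor of early mesoderm and endothelium, went from 19.9 and 17.6 to 2312 and 2293 in WT and from 22.4 and 41.2 to 46.5 and 26.1 in CTCF-K20R (difference -6.68 ± 0.72, adjusted p = 0.0027). Flt1, another VEGF receptor, went from 96.9 and 100.5 to 2789 and 2809 in WT and from 98.5 and 84.0 to 336 and 348 in CTCF-K20R (difference -2.91 ± 0.23, adjusted p = 0.00104). Etv2, an ETS factor of the first blood and endothelial cells, differed by -2.91. The lower count fell to 2 without CTCF-K20R day 4 replicate 1 and to 1 without replicate 2, and it was 6 with the 8 libraries taken separately. Tal1, a factor of blood progenitors, reached 61.9 and 62.8 normalized counts in EBs of WT and 78.4 and 81.9 in CTCF-K20R EBs and was not called (0.27 ± 0.70, adjusted p = 0.805). Pecam1, which mESCs also express, was the member whose response was higher (1.32 ± 0.13, adjusted p = 0.00214), since it went down in both lines and less in CTCF-K20R. Etv2 was not called without either CTCF-K20R day 4 library in turn (adjusted p of 0.0749 to 0.0878). Kdr was not called without CTCF-K20R day 4 replicate 2 (adjusted p = 0.0527).

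Definitive endoderm genes showed a median difference of -5.26. Of 13 tested members 9 were lower (69.2%, against 6.04% of all genes tested) and 1 higher (7.7%, near the 6.84% of all genes). Gata6 of this list is also in the streak and cardiac lists, and Cer1 is also in the Nodal list. Cer1, a secreted inhibitor of Nodal, BMP and Wnt made by anterior endoderm, reached 7907 and 7871 normalized counts in EBs of WT and 8.01 and 8.76 in CTCF-K20R EBs, with all day 0 libraries under the limit of detection (difference -8.63 ± 0.84, adjusted p = 0.00197, not called with a pseudocount of 0.1). Sox17, an endoderm factor, went from 3.91 and 3.26 to 1881 and 1912 in WT and from 0 and 0 to 15.5 and 7.79 in CTCF-K20R (difference -5.10 ± 0.81, adjusted p = 0.00932). Cxcr4, a chemokine receptor of endoderm and mesoderm, went from 61.1 and 54.8 to 2129 and 2154 in WT and from 51.1 and 35.2 to 27.9 and 30.7 in CTCF-K20R (difference -5.70 ± 0.44, adjusted p = 0.00104). Its 2 CTCF-K20R EB libraries were below all 4 day 0 libraries, and those of WT were above them. Hhex, a homeobox factor of anterior endoderm, differed by -3.89. Trh, the thyrotropin-releasing hormone gene, was the exception (2.35 ± 0.064, adjusted p = 9.77e-05), with a starting level of 8294 and 8289 in WT and 2022 and 1905 in CTCF-K20R at day 0 and similar levels at day 4. Visceral and parietal endoderm genes divided. Of 16 tested members 6 were lower and 2 higher (5 higher with the 8 libraries taken separately), with a median of -0.23. The basement membrane genes Col4a1 (-2.20), Col4a2 (-2.22) and Lama1 (-2.66 ± 0.11, adjusted p = 0.000206) were lower. The lipid carrier gene Apoe (1.56 ± 0.068, adjusted p = 0.00021) and Lrp2, which encodes the endocytic receptor megalin, were higher. Lrp2 was level in WT and not in CTCF-K20R, with 280.5 and 272 in WT and 253 and 242 in CTCF-K20R at day 0, and 273 and 272 against 2519 and 2816 at day 4 (difference 3.44 ± 0.15, adjusted p = 0.000223). Its receptor partner Cubn was low throughout and was not called (2.67 ± 0.90, adjusted p = 0.0814).

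In the BMP pathway, ligands, a transducer, targets and inhibitors all had lower responses. Of 24 tested members 13 were lower and 0 higher, with a median difference of -1.97 (median response 1.43 in WT and 0.05 in CTCF-K20R). The 13 became 7 without CTCF-K20R day 4 replicate 1 and 8 without replicate 2. Among the ligands, Bmp4 went from 446 and 434 to 254 and 256 in WT and from 263 and 269 to 39.0 and 47.7 in CTCF-K20R (difference -1.81 ± 0.28, adjusted p = 0.00902). Its day 4 level was 1.72-fold lower in WT and 6.14-fold lower in CTCF-K20R. Bmp7 went from 330.2 and 301 to 1163 and 1168 in WT and from 175 and 212 to 107 and 109 in CTCF-K20R (difference -2.71 ± 0.25, adjusted p = 0.0016). Bmp2 was lower in each CTCF-K20R EB library than in WT and missed the threshold (-3.03 ± 0.93, adjusted p = 0.0656). The receptors Bmpr1a (-0.23), Bmpr2 (-0.07) and Acvr1 (-0.19) were not called. Among the signal transducers, Smad1 went from 321 and 319 to 1888 and 1884 in WT and from 507 and 494 to 666 and 660.4 in CTCF-K20R (difference -2.15 ± 0.12, adjusted p = 0.000421). Bmp4 was not called without CTCF-K20R day 4 replicate 1 (adjusted p = 0.0553).

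The direct BMP targets Id1 and Id3, inhibitors of helix-loop-helix factors, differed by -2.47 ± 0.17, adjusted p = 0.000815 for Id1 and -2.12 ± 0.14, adjusted p = 0.000707 for Id3. For Id3 the CTCF-K20R response was 0.01 against 2.13 in WT, while Id2 differed by 0.97 and was not called (adjusted p = 0.0657). Msx2, a homeobox target of BMP, moved in opposite directions. It went from 44.7 and 46.6 to 398 and 379 in WT and from 151 and 204 to 6.81 and 12.9 in CTCF-K20R (difference -7.15 ± 0.61, adjusted p = 0.00133). It started higher in CTCF-K20R and ended 39.5-fold lower than in WT. Extracellular inhibitors were lower too. Chrd, which encodes chordin, went from 73.9 and 77.4 to 2287 and 2265 in WT and from 53.8 and 47.9 to 94.9 and 76.8 in CTCF-K20R (difference -4.15 ± 0.33, adjusted p = 0.0011), and Nog, which encodes noggin, went from 10.2 and 10.5 to 103 and 104 in WT and from 12.2 and 11.2 to 3.51 and 1.07 in CTCF-K20R (difference -5.25 ± 0.88, adjusted p = 0.0108). Bmper, which encodes a secreted BMP regulator, was under the limit of detection at day 0 in both lines and differed at day 4, with 587 and 599 in WT and 4.61 and 4.36 in CTCF-K20R. Bmper was not called without either CTCF-K20R day 4 library in turn (adjusted p of 0.0537 to 0.0544).

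The Wnt pathway had 15 of 29 tested members lower and 0 higher (median difference -1.41, or -1.34 with values under the limit of detection set to it, where 13 were lower). With either CTCF-K20R day 4 library left out, 8 were lower. Among the ligands, Wnt5a, which drives cell movement, went from 12.99 and 13.3 to 1671 and 1685 in WT and from 6.84 and 6.96 to 30.5 and 19.2 in CTCF-K20R (difference -5.22 ± 0.58, adjusted p = 0.00304). Wnt3a, the ligand of the posterior streak, went from 4.53 and 5.67 to 84.8 and 83.8 in WT and from 7.58 and 8.82 to 5.75 and 7.60 in CTCF-K20R (difference -4.07 ± 0.67, adjusted p = 0.0104). Wnt3, which starts the streak, went up in both lines (WT response 7.01, CTCF-K20R response 5.23) and was not called. Wnt8a stood apart with a higher level in CTCF-K20R EBs than in WT EBs (782 and 782 in WT and 1127 and 1156 in CTCF-K20R), and its lower response (-1.45 ± 0.40, adjusted p = 0.0498) rested on levels near the limit at day 0 and became 0.14, not called, with values under that limit set to it. Of the core transducers, Ctnnb1, which encodes beta-catenin, differed by 0.18, Lrp6 by -0.01 and Lef1 by 0.00, with equal responses of 3.39 in the lines, while Tcf7l2 was lower (-1.34 ± 0.32, adjusted p = 0.0323). Wnt8a and Tcf7l2 were not called without either CTCF-K20R day 4 library in turn (adjusted p of 0.0948 to 0.158). Wnt8a was not called without CTCF-K20R day 0 replicate 1 (adjusted p = 0.0509). Wnt8a and Tcf7l2 were not called without CTCF-K20R day 0 replicate 2 (adjusted p of 0.0779 and 0.0793). Wnt8a was not called without WT day 0 replicate 1 (adjusted p = 0.109).

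Among targets and feedback inhibitors of Wnt, Sp5 went from 86.0 and 84.4 to 4173 and 4144 in WT and from 101 and 76.4 to 100.1 and 154 in CTCF-K20R (difference -5.09 ± 0.44, adjusted p = 0.00139). Its CTCF-K20R response was 0.50 against 5.59 in WT. Dkk1, a secreted Wnt inhibitor, went from 5.66 and 4.73 to 1364 and 1344 in WT and from 6.46 and 9.92 to 12.5 and 21.8 in CTCF-K20R (difference -6.81 ± 0.71, adjusted p = 0.00248). Rspo3, which strengthens Wnt signals, was under the limit in all day 0 libraries and reached 1777 and 1788 in WT and 33.1 and 48.2 in CTCF-K20R at day 4 (difference -4.42 ± 0.67, adjusted p = 0.00825). Lgr5, an R-spondin receptor, differed by -6.69. Axin2, a general Wnt target, was 1.98-fold higher in WT EBs than at day 0 and was level in CTCF-K20R (difference -0.99 ± 0.13, adjusted p = 0.00538), just under the size limit of 1. Notum, a Wnt inhibitor that was high in mESCs, went down alike in both lines (-5.44 and -5.57, difference -0.13 ± 0.83, adjusted p = 0.927). Lgr5 was not called without CTCF-K20R day 4 replicate 2 (adjusted p = 0.0538).

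The Nodal pathway split into genes of both directions, 6 higher and 3 lower of 21 tested, with a median difference of -0.09. Nodal, the ligand of the TGF-beta family that induces the streak, was among the higher. It went from 1464 and 1481 to 777 and 757 in WT and from 1293 and 1291 to 1899 and 1942 in CTCF-K20R (difference 1.51 ± 0.084, adjusted p = 0.000421), so at day 4 its level was 1.92-fold lower in WT and 1.49-fold higher in CTCF-K20R. Lefty1, its feedback inhibitor, moved in the same way, with 1803 and 1811 in WT and 1102 and 1201 in CTCF-K20R at day 0, and 634 and 617 against 2333 and 2433 at day 4 (difference 2.58 ± 0.11, adjusted p = 0.0002). Gdf3, a related ligand of pluripotent cells, went from 2015 and 2023 to 45.3 and 48.0 in WT and from 1444 and 1420 to 467 and 482 in CTCF-K20R (difference 3.81 ± 0.12, adjusted p = 0.000108). Smad7 (1.44 ± 0.11, adjusted p = 0.000946) and Skil (1.17 ± 0.061, adjusted p = 0.000335), both intracellular inhibitors of the pathway, were higher, as was Pcsk6, a convertase of the ligand (1.06). The 3 lower genes were Cer1, given above, Foxh1 (-1.37 ± 0.10, adjusted p = 0.00093), a DNA-binding partner of the Smads, and Fst, which encodes follistatin (-1.89 ± 0.12, adjusted p = 0.000554). Lefty2 went down in both lines and its difference of -0.79 was under the size limit, and the co-receptor gene Tdgf1 differed by -0.76. The receptors Acvr1b (-0.07) and Acvr2b (-0.09) and the transducers Smad3 (-0.29) and Smad4 (0.04) were not called.

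The FGF ligands and ERK response genes had 8 of 24 tested members lower and 2 higher (median difference -0.91, 5 lower when the limma prior had no trend). Fgf3, a streak ligand, went from 103 and 108 to 923 and 866 in WT and from 147 and 229 to 30.4 and 10.8 in CTCF-K20R (difference -6.34 ± 0.86, adjusted p = 0.00581), with opposite movement in the lines. Fgf10, a ligand of mesoderm, reached 1267 and 1270 normalized counts in EBs of WT and 7.82 and 30.3 in CTCF-K20R EBs (difference -6.05 ± 1.09, adjusted p = 0.014). Fgf5 and Fgf8 went up in both lines and were not called (differences of 1.26 and -0.59). Fgf4, made by pluripotent cells, was higher (1.17 ± 0.078, adjusted p = 0.000696). Dusp6 and Dusp4, phosphatases induced by ERK, went up in both lines and less in CTCF-K20R (Dusp6 -1.24 ± 0.16, adjusted p = 0.00463). In 2 cases the difference lay at day 0. Etv4, an ETS target of FGF, went from 84.0 and 80.8 to 1328 and 1314 in WT and from 1234 and 1096 to 783 and 811 in CTCF-K20R (difference -4.53 ± 0.15, adjusted p = 0.000108), and it stood 14.1-fold higher in CTCF-K20R than in WT at day 0. Spry4, a feedback inhibitor, had 83.7 and 77.5 in WT and 459.7 and 472 in CTCF-K20R at day 0, and 1662 and 1653 against 1455 and 1560 at day 4 (difference -2.65 ± 0.13, adjusted p = 0.000284), with the lines close at day 4. Spry1, a related inhibitor, went the other way (1.86 ± 0.17, adjusted p = 0.00166). Egr1, an immediate early ERK target, went down in both lines and further in CTCF-K20R (difference -1.92 ± 0.094, adjusted p = 0.000284). Dusp6 was not called without either CTCF-K20R day 4 library in turn (adjusted p of 0.0736 to 0.0754). Fgf10 was not called without CTCF-K20R day 4 replicate 1 (adjusted p = 0.0536). Fgf10 was not called without CTCF-K20R day 0 replicate 1 (adjusted p = 0.0557).

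Notch genes and segmentation genes had 8 of 14 tested members lower and 2 higher (median -1.33), and the lower count was 3 with either CTCF-K20R day 4 library left out and 5 without day 0 replicate 2. Dll3, a Notch ligand of presomitic mesoderm, went from 77.6 and 78.0 to 2502 and 2510 in WT and from 74.3 and 82.8 to 224 and 235 in CTCF-K20R (difference -3.45 ± 0.23, adjusted p = 0.000696). Jag1, another ligand, went up in WT alone (difference -1.79 ± 0.14, adjusted p = 0.001), and Hes1, a Notch target, went from 817 and 790.1 to 1834 and 1789 in WT and from 739.9 and 704 to 532 and 470.4 in CTCF-K20R (difference -1.70 ± 0.15, adjusted p = 0.00135). The ligand Jag2 (1.49 ± 0.16, adjusted p = 0.0026) and the receptor Notch3 (1.16 ± 0.083, adjusted p = 0.00084) were the 2 higher members, and the receptors Notch1 and Notch2 were not called. Lfng, Nrarp, Hes7 and Dll1 were lower, with differences of -1.60, -1.32, -2.34 and -2.69. Lfng, Nrarp, Hes7 and Dll1 were not called without either CTCF-K20R day 4 library in turn (adjusted p of 0.0751 to 0.167). Hes7 was not called without CTCF-K20R day 0 replicate 1 (adjusted p = 0.0533). Hes7 and Lfng were not called without CTCF-K20R day 0 replicate 2 (adjusted p of 0.0593 and 0.0526).

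In retinoic acid metabolism 5 of 12 tested genes were lower and 3 higher (2 lower with either CTCF-K20R day 4 library left out, and 1 higher without replicate 1). Cyp26a1, the enzyme that breaks down retinoic acid and a gene of the streak, was under or near the limit at day 0 and reached 9398 and 9342 in WT and 6.95 and 19.6 in CTCF-K20R at day 4 (difference -10.07 ± 1.06, adjusted p = 0.00253). The receptor Rarg was higher, since it went down in WT and up in CTCF-K20R, with 1606 and 1592 in WT and 1830 and 1717 in CTCF-K20R at day 0, and 700.1 and 719 against 2896 and 2898 at day 4 (difference 1.88 ± 0.089, adjusted p = 0.000261). Crabp2, a retinoic acid carrier, was 1.87-fold higher at day 4 in WT and 13.5-fold higher in CTCF-K20R, and Aldh1a2, the enzyme that makes retinoic acid in mesoderm, reached 63.4 and 62.4 in WT EBs and was under the limit in CTCF-K20R EBs. Hox and Cdx genes had 6 of 16 tested members lower and 0 higher (median -1.82, or -1.32 with values at the limit), with 3 lower with either CTCF-K20R day 4 library left out and 10 with the 8 libraries taken separately. The table held 41 genes of this list, and the others were under the filter. Hoxa3 and Hoxd3, both called lower, passed the filter only through their WT EB libraries, so the count and median depend in part on the filter. Hoxb1 went from 21.9 and 25.6 to 514 and 514 in WT and from 30.2 and 26.6 to 26.6 and 39.9 in CTCF-K20R (difference -4.19 ± 0.51, adjusted p = 0.00414), and Hoxa3 reached 108 and 107 in WT EBs and 0 in both CTCF-K20R EB libraries (difference -7.70 ± 0.81, adjusted p = 0.00256). Cdx1 started higher in CTCF-K20R (180.4 and 184 in WT and 527 and 526 in CTCF-K20R) and went down in both lines (difference -3.18 ± 0.42, adjusted p = 0.00534). Aldh1a2 was not called without either CTCF-K20R day 4 library in turn (adjusted p of 0.0819 to 0.0825). Crabp2 was not called without CTCF-K20R day 4 replicate 1 (adjusted p = 0.0507).

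Axon guidance and ephrin genes, which also act in the movement of mesoderm, had 12 of 32 tested members lower and 3 higher (median -1.23). The 3 higher were not called with either CTCF-K20R day 4 library left out. Nrp2, a semaphorin co-receptor, went from 462 and 470.2 to 2517 and 2490 in WT and from 1018 and 996 to 72.8 and 68.1 in CTCF-K20R (difference -6.24 ± 0.15, adjusted p = 7.39e-05), opposite directions in the lines. Nrp1 went from 14.6 and 15.0 to 1084 and 1091 in WT and from 6.45 and 8.74 to 7.91 and 5.47 in CTCF-K20R (difference -6.27 ± 0.63, adjusted p = 0.0022). Sema6d, a semaphorin, went from 4.28 and 3.58 to 2246 and 2244 in WT and from 4.96 and 4.13 to 23.8 and 18.8 in CTCF-K20R (difference -6.83 ± 0.56, adjusted p = 0.00121). Ntn1, which encodes netrin-1, was near level in WT and 8.74-fold lower in CTCF-K20R EBs (difference -3.75 ± 0.11, adjusted p = 0.000104), and so was the receptor gene Epha4 (-3.51 ± 0.18, adjusted p = 0.000305). Epha1 was 84.5-fold higher in WT EBs and 92.8-fold higher in CTCF-K20R EBs and was not called (0.14 ± 0.22, adjusted p = 0.67). Of the matrix genes, 10 of 27 were lower and 2 higher (median -0.13), with 1 higher without either CTCF-K20R day 4 library in turn or without day 0 replicate 2. The matrix share was 37.0% lower and 7.4% higher, against 6.04% and 6.84% of all genes tested. Col5a1 (-2.04 ± 0.15, adjusted p = 0.000886) and the fibronectin receptor gene Itga5 (-1.92 ± 0.094, adjusted p = 0.000284) were lower. Col18a1 was higher and went from 7491 and 7542 to 1347 and 1382 in WT and from 6666 and 6569 to 6931 and 7113 in CTCF-K20R (difference 2.55 ± 0.056, adjusted p = 6.79e-05).

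Markers of the feeder fibroblasts were low at day 0. The 15 markers in the table summed to 849.9 to 912.7 normalized counts in the 4 day 0 libraries and 1885.3 to 2034.6 at day 4, with 5 markers at 0 in both WT day 0 libraries and 3 in both CTCF-K20R day 0 libraries. Postn was 0 in all day 0 libraries, and Col1a1 lay between 16.0 and 34.3. Of the 12 tested, 5 were lower and 1 higher, and the lower count was 1 with either CTCF-K20R day 4 library left out and 2 with either day 0 library left out. Thy1 was the higher one (3.44 ± 0.20, adjusted p = 0.000456), with 465 and 458 in WT and 104 and 103 in CTCF-K20R at day 0, and 226 and 222 against 579.8 and 526 at day 4. The part of feeder RNA in the other differences was not tested.

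Genes of general pluripotency had 11 of 19 tested members higher (57.9%, against 6.84% of all genes) and 0 lower, with a median difference of 1.56 (median response -2.11 in WT and -0.35 in CTCF-K20R). Sox2, a core factor of pluripotency that neural cells also use, went from 13107 and 13162 to 608 and 618 in WT and from 13545 and 12811 to 3240 and 3192 in CTCF-K20R (difference 2.39 ± 0.068, adjusted p = 0.000101). From similar day 0 levels, it was 21.4-fold lower in WT EBs and 4.10-fold lower in CTCF-K20R EBs. Nanog went from 15423 and 15415 to 1702 and 1698 in WT and from 16549 and 16387 to 5510 and 5208 in CTCF-K20R (difference 1.56 ± 0.063, adjusted p = 0.000186). Pou5f1, the third core factor, was 1.95-fold lower in WT EBs and 1.1-fold lower in CTCF-K20R EBs than at day 0, and its difference of 0.82 (adjusted p = 0.000554) was under the size limit. Utf1, a chromatin protein of undifferentiated cells, went from 3687 and 3668 to 326 and 319.7 in WT and from 2393 and 2411 to 5069 and 4802 in CTCF-K20R (difference 4.54 ± 0.079, adjusted p = 3.6e-05), down in WT and up in CTCF-K20R. L1td1, an RNA-binding protein of pluripotent cells, was close to its day 0 level in CTCF-K20R EBs (response -0.10) and lower in WT EBs (response -2.11). Dppa2 and Dppa4, paired factors of early embryonic genes, differed by 1.79 and 1.89. Tdh, the threonine dehydrogenase on which mESC metabolism depends, went from 14599 and 14596 to 246 and 243 in WT and from 6002 and 6181 to 1694 and 1601 in CTCF-K20R (difference 4.01 ± 0.080, adjusted p = 4.79e-05), a difference that held a lower starting level in CTCF-K20R and a higher end. Sall4 (-0.52) and Tdgf1 (-0.76), which went up in WT EBs, were not called.

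The naive factors, which mark mESCs and go down as they leave that state, went down by a large factor in both lines. The median response was -5.48 in WT and -4.23 in CTCF-K20R, and 6 of 17 tested members were higher and 3 lower (median difference 0.75). Esrrb went from 17282 and 17343 to 71.5 and 73.6 in WT and from 16402 and 16202 to 441 and 479.8 in CTCF-K20R (difference 2.73 ± 0.095, adjusted p = 0.000128). The level in CTCF-K20R EBs was 6.35-fold higher than in WT EBs and still 35.4-fold lower than at day 0. Klf2 went from 4382 and 4398 to 73.4 and 69.7 in WT and from 7550 and 8152 to 451 and 387 in CTCF-K20R (difference 1.69 ± 0.15, adjusted p = 0.00164), Nr5a2 differed by 2.34 and Nr0b1 by 3.06. Zfp42 (difference 0.92) and Tfcp2l1 (0.77) were under the size limit, and Prdm14 was not called (-0.72 ± 0.44, adjusted p = 0.283). Klf4 (-1.16 ± 0.30, adjusted p = 0.0421), Tbx3 (-2.05 ± 0.55, adjusted p = 0.0457) and the LIF receptor gene Lifr (-1.11 ± 0.10, adjusted p = 0.00172) went down further in CTCF-K20R. The lower count was 1 with either CTCF-K20R day 0 library left out. Klf4 was not called without CTCF-K20R day 4 replicate 2 (adjusted p = 0.0577). Klf4 and Tbx3 were not called without CTCF-K20R day 0 replicate 1 (adjusted p of 0.107 and 0.114). Klf4 and Tbx3 were not called without CTCF-K20R day 0 replicate 2 (adjusted p of 0.128 and 0.127).

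Of the formative and primed epiblast genes, 11 of 14 had a WT response above 1 and 2 a WT response below -1. Of the 14 tested members 10 were higher and 0 lower, with median responses of 2.14 in WT and 3.16 in CTCF-K20R (median difference 1.62). Pou3f1, a POU factor of the epiblast, went from 51.8 and 48.2 to 253 and 258 in WT and from 48.6 and 54.6 to 3033 and 2921 in CTCF-K20R (difference 3.50 ± 0.21, adjusted p = 0.00049). It was 5.11-fold higher in WT and 57.7-fold higher in CTCF-K20R, from equal starting levels. Dnmt3b, a de novo DNA methyltransferase, went from 3212 and 3281 to 14624 and 14620 in WT and from 3108 and 3120 to 36756 and 38180 in CTCF-K20R (difference 1.42 ± 0.052, adjusted p = 0.000144). Foxd3, a forkhead factor of the epiblast, went down in WT and was near level in CTCF-K20R, with 681 and 663 in WT and 745 and 714 in CTCF-K20R at day 0, and 173 and 176 against 1017 and 868 at day 4 (difference 2.30 ± 0.17, adjusted p = 0.000936). Fgf5 went up in both lines, 1249-fold higher in WT and at least 984-fold higher in CTCF-K20R, and its difference was not called (1.26 ± 0.65, adjusted p = 0.209). Otx2 was 4.31-fold higher in WT EBs and 7.12-fold higher in CTCF-K20R EBs, with a difference of 0.72 under the size limit. Sox3, which epiblast and neural ectoderm share, went from 29.5 and 28.6 to 83.0 and 82.5 in WT and from 3.52 and 5.70 to 552 and 574 in CTCF-K20R (difference 5.20 ± 0.49, adjusted p = 0.00181). Sox3 was not called without CTCF-K20R day 4 replicate 2 (adjusted p = 0.0509).

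Epithelial genes had 8 of 18 tested members higher and 2 lower (median difference 0.95), with 5 higher without CTCF-K20R day 4 replicate 1. Cdh1, which encodes E-cadherin, went from 11746 and 11698 to 7650 and 7666 in WT and from 13557 and 13476 to 17798 and 18538 in CTCF-K20R (difference 1.04 ± 0.051, adjusted p = 0.000283). Epcam, an epithelial adhesion protein, went from 1182 and 1186 to 3018 and 3039 in WT and from 398 and 407 to 4615 and 4524 in CTCF-K20R (difference 2.15 ± 0.082, adjusted p = 0.000158). Its lower starting level in CTCF-K20R and its higher end both entered the difference. The tight junction genes Cldn4 (1.74 ± 0.10, adjusted p = 0.00049) and Cldn3 (1.94) were higher. The keratin genes went against the group, since Krt8 went from 272 and 280.2 to 7514 and 7504 in WT and from 369 and 369.9 to 1091 and 969 in CTCF-K20R (difference -3.29 ± 0.14, adjusted p = 0.000195) and Krt18 differed by -1.25. Neural ectoderm genes had 4 of 20 tested members higher and 3 lower (median 0.18), with 2 higher without CTCF-K20R day 4 replicate 2. Sox1, a factor of neural progenitors, went down under the limit in WT and to 40.1 and 53.8 normalized counts in CTCF-K20R (difference 4.00 ± 0.46, adjusted p = 0.00328), and Pax6 went from 32.8 and 31.9 to 12.4 and 16.0 in WT and from 15.5 and 22.2 to 100.2 and 84.2 in CTCF-K20R (difference 3.38 ± 0.54, adjusted p = 0.00972). Sox21 was lower (-3.44 ± 0.46, adjusted p = 0.00538), and Nes (0.32), Sox11 (0.18), Tubb3 (0.18) and Map2 (-0.11) were not called. Of the surface ectoderm and trophoblast genes, 2 of 10 were lower, and neither call held without a CTCF-K20R day 4 library. Those were Cdx2 (-5.89) and Gata3 (-3.33). Cldn3, Pax6, Cdx2 and Gata3 were not called without either CTCF-K20R day 4 library in turn (adjusted p of 0.0562 to 0.0843).

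Genes of glycolysis and glucose uptake had 9 of 23 tested members higher and 0 lower, with a median difference of 0.80 (median response -0.57 in WT and 0.13 in CTCF-K20R). Slc2a1, the main glucose transporter, went from 13267 and 13284 to 12499 and 12439 in WT and from 15046 and 14980 to 33816 and 34190 in CTCF-K20R (difference 1.27 ± 0.038, adjusted p = 0.000104). It was level in WT and 2.26-fold higher in CTCF-K20R EBs. Pdk1, a kinase that inhibits pyruvate dehydrogenase, went from 5617 and 5540 to 2670 and 2647 in WT and from 4531 and 4584 to 9310 and 9644 in CTCF-K20R (difference 2.12 ± 0.058, adjusted p = 9.77e-05), in opposite directions. Hk1 and Hk2, the hexokinases, went down in both lines and less in CTCF-K20R (1.35 and 1.02), as did Pfkp (1.42 ± 0.056, adjusted p = 0.000171). The enzyme genes Aldoa (0.79), Tpi1 (0.70), Pgk1 (0.80) and Pkm (0.51) differed by less than the size limit and in the same direction. Ldha, which makes lactate, was the opposite (-0.44 ± 0.044, adjusted p = 0.00218), since it went up in both lines and more in WT. Hk2 had a difference of 0.99, under the size limit, without CTCF-K20R day 4 replicate 2.

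The hypoxia response genes, 2 of which the glycolysis list also holds, had 11 of 20 tested members higher and 0 lower (median 1.18). Bhlhe40, a repressor induced by low oxygen, went from 1496 and 1499 to 411 and 407 in WT and from 1424 and 1451 to 2187 and 2333 in CTCF-K20R (difference 2.52 ± 0.097, adjusted p = 0.000159). Bnip3, a mitochondrial autophagy gene, went from 7285 and 7258 to 2168 and 2178 in WT and from 6590 and 6478 to 5478 and 5443 in CTCF-K20R (difference 1.48 ± 0.053, adjusted p = 0.000139), and Egln3, an oxygen sensor, differed by 1.76 ± 0.085, adjusted p = 0.00028. P4ha2, a collagen hydroxylase, was higher (2.10 ± 0.18, adjusted p = 0.00137) and its paralogue P4ha1 was not (-0.62 ± 0.090, adjusted p = 0.00723). Adm, which encodes adrenomedullin, differed by 3.46. Vegfa, a vessel growth factor, went down in both lines with a difference of -0.69, and Ndrg1 (-0.45), Kdm3a (0.26) and Bnip3l (0.15) were under the size limit. None of the 75 tested genes of oxidative phosphorylation was called in the limma fit. Their median difference was -0.13, and Ndufb10 was the farthest from 0 (-0.56 ± 0.11, adjusted p = 0.0196). Of these, 15 passed the adjusted p and 21 an unadjusted p under 0.05 without the size limit, and 0 were called with the WT libraries kept apart. Adm was not called without either CTCF-K20R day 4 library in turn (adjusted p of 0.0526 to 0.0611).

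Targets of p53 had 8 of 17 tested members higher and 0 lower, with a median difference of 0.91, a median WT response of -0.27 and a median CTCF-K20R response of 1.19. Plk2, a kinase of the stress response, went from 483 and 496 to 797 and 790.3 in WT and from 297 and 309.7 to 1921 and 1842 in CTCF-K20R (difference 1.93 ± 0.12, adjusted p = 0.000554). Bbc3, the proapoptotic Puma gene, went from 512 and 471 to 452 and 451 in WT and from 378 and 429 to 1188 and 1354 in CTCF-K20R (difference 1.78 ± 0.18, adjusted p = 0.00233). Trp53inp1 went from 4450 and 4417 to 3027 and 3020 in WT and from 3110 and 3070 to 7069 and 7189 in CTCF-K20R (difference 1.76 ± 0.057, adjusted p = 0.000108), down in WT and up in CTCF-K20R. Ccng1 (1.44), Zmat3 (1.52), Phlda3 (1.5) and Eda2r (1.97) were higher as well. Cdkn1a, the p21 gene, was higher by 1.07 ± 0.076, adjusted p = 0.00084, a call that was lost when the libraries were scaled to equal totals. Mdm2 (0.86) and Bax (0.62) were under the size limit, Pmaip1 and Perp differed by -0.46 and -0.44, and Trp53 itself by 0.23.

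Of the 18 tested genes of the ATF4 and amino acid stress response, 4 were higher and 1 lower (median 0.26). Trib3, a pseudokinase induced by ATF4, went from 828 and 843 to 93.3 and 99.6 in WT and from 1048 and 1070 to 371 and 352 in CTCF-K20R (difference 1.55 ± 0.14, adjusted p = 0.00165). Atf4 itself (-0.04), Asns (0.24) and the serine synthesis genes Psat1 (0.27) and Phgdh (0.29) were not called. The higher count was 1 without CTCF-K20R day 4 replicate 2, and the lower count 0 with either CTCF-K20R day 4 library left out. Cell cycle genes had 3 of 28 higher and 0 lower (median 0.04), and the higher count was 1 with either CTCF-K20R day 4 library left out. The share of cell cycle genes that were higher was 10.7%, against 6.84% of all genes tested. Mki67 (0.02 ± 0.052, adjusted p = 0.762), Ccnb1 (0.00 ± 0.053, adjusted p = 0.972) and Pcna (0.01 ± 0.051, adjusted p = 0.884) had nearly equal responses in the lines. None of the 4 ribosomal protein genes in the table was called by limma (median 0.16, 2 of them with an unadjusted p under 0.05), also with the WT libraries kept apart. Of the 22 cholesterol synthesis genes 1 (4.5%, against 6.04% of all genes tested), Hsd17b7, was lower (-1.35, median of the list 0.03). Hsd17b7 was not called without either CTCF-K20R day 4 library in turn (adjusted p of 0.0854 to 0.0972).

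None of the 18 tested cohesin and CTCF-associated genes was called by limma (median 0.04), and 1 was with the WT libraries kept apart. An unadjusted p under 0.05 was reached by 10 and an adjusted one by 8. Among those 8, Rad21 (-0.43 ± 0.047, adjusted p = 0.00299) and Pds5b (-0.63 ± 0.074, adjusted p = 0.00355) passed the adjusted p and not the size limit. Ep300 (0.51), Crebbp (0.03) and Hdac6 (-0.19), genes of acetyltransferases and of a deacetylase, were not called. Ctcfl, the germline paralogue of Ctcf, was low and uncertain (2.38 ± 0.74, adjusted p = 0.0674). Of 24 tested Polycomb and DNA methylation genes, 6 were higher and 1 lower (median 0.18). Cbx7, the Polycomb subunit of mESCs, went from 7457 and 7683 to 1319 and 1325 in WT and from 6910 and 6289 to 5865 and 5694 in CTCF-K20R (difference 2.33 ± 0.091, adjusted p = 0.000169). Tet1, which oxidizes methylated DNA, was higher (1.72 ± 0.23, adjusted p = 0.00519) and Tet3 lower (-1.52 ± 0.14, adjusted p = 0.00166). Dnmt3a (1.74 ± 0.14, adjusted p = 0.00115), Dnmt3b and Dnmt3l (1.71 ± 0.077, adjusted p = 0.000229) were higher, while Dnmt1, the maintenance enzyme, was not called (0.04 ± 0.049, adjusted p = 0.596). The core Polycomb genes Ezh2 (-0.31), Suz12 (0.24) and Rnf2 (-0.31) were not called.

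Imprinted genes had both directions, also within a cluster. Of 30 tested, 4 were higher and 7 lower (median -0.30). The noncoding genes of one cluster, Meg3 (1.28 ± 0.077, adjusted p = 0.000516), Rian (1.13 ± 0.090, adjusted p = 0.00112) and Mirg (1.11 ± 0.15, adjusted p = 0.00544), were higher together, while its protein-coding neighbour Dlk1 was lower (-2.53). Peg3, a zinc finger gene, went from 1883 and 1893 to 30945 and 30908 in WT and from 1219 and 1179 to 3150 and 3291 in CTCF-K20R (difference -2.61 ± 0.074, adjusted p = 0.000101), and its neighbour Usp29 was lower (-2.52). Snrpn was higher (1.91 ± 0.061, adjusted p = 0.000108) and Ndn, of the same region, lower (-2.51 ± 0.17, adjusted p = 0.000668). Plagl1, a zinc finger gene, differed mainly at the start, with 512 and 524 in WT and 5172 and 5140 in CTCF-K20R at day 0, and 102 and 126 against 369 and 432 at day 4 (difference -1.52 ± 0.16, adjusted p = 0.0025). H19 (1.02), Igf2 (-1.12) and Kcnq1ot1 (-0.01) were not called. Germ cell genes had 6 of 22 higher and 2 lower (median 0.61), and limma called 0 higher with either CTCF-K20R day 4 library left out, 2 without day 0 replicate 1 and 3 without day 0 replicate 2. The 2 lower were Kit, a receptor of germ cells and mESCs (-2.79 ± 0.26, adjusted p = 0.00169), and Prdm1, a repressor of primordial germ cells and of the streak, which went from 256 and 265 to 685 and 659 in WT and from 195 and 172 to 49.1 and 50.7 in CTCF-K20R (difference -3.22 ± 0.26, adjusted p = 0.00119). Of 9 tested genes of the 2-cell-like state, Zscan4f was called higher (3.90), with 2 members higher without CTCF-K20R day 0 replicate 1. The Zscan4 genes are near-identical copies whose reads the quantification may have split, and they stood higher in CTCF-K20R than in WT on both days. Clustered protocadherin genes, which share 3′ exons within a cluster, had 4 of 18 lower and 0 higher (median -1.23, or -1.47 at the limit), with 0 lower without CTCF-K20R day 4 replicate 1 and 1 without replicate 2, and likewise 0 and 1 without day 0 replicate 1 and 2. Mirg, Dlk1, Usp29 and Zscan4f were not called without either CTCF-K20R day 4 library in turn (adjusted p of 0.0509 to 0.161). Dlk1 and Usp29 were not called without CTCF-K20R day 0 replicate 1 (adjusted p of 0.0547 and 0.0579). Usp29 was not called without CTCF-K20R day 0 replicate 2 (adjusted p = 0.0652).

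**Figure D4:**
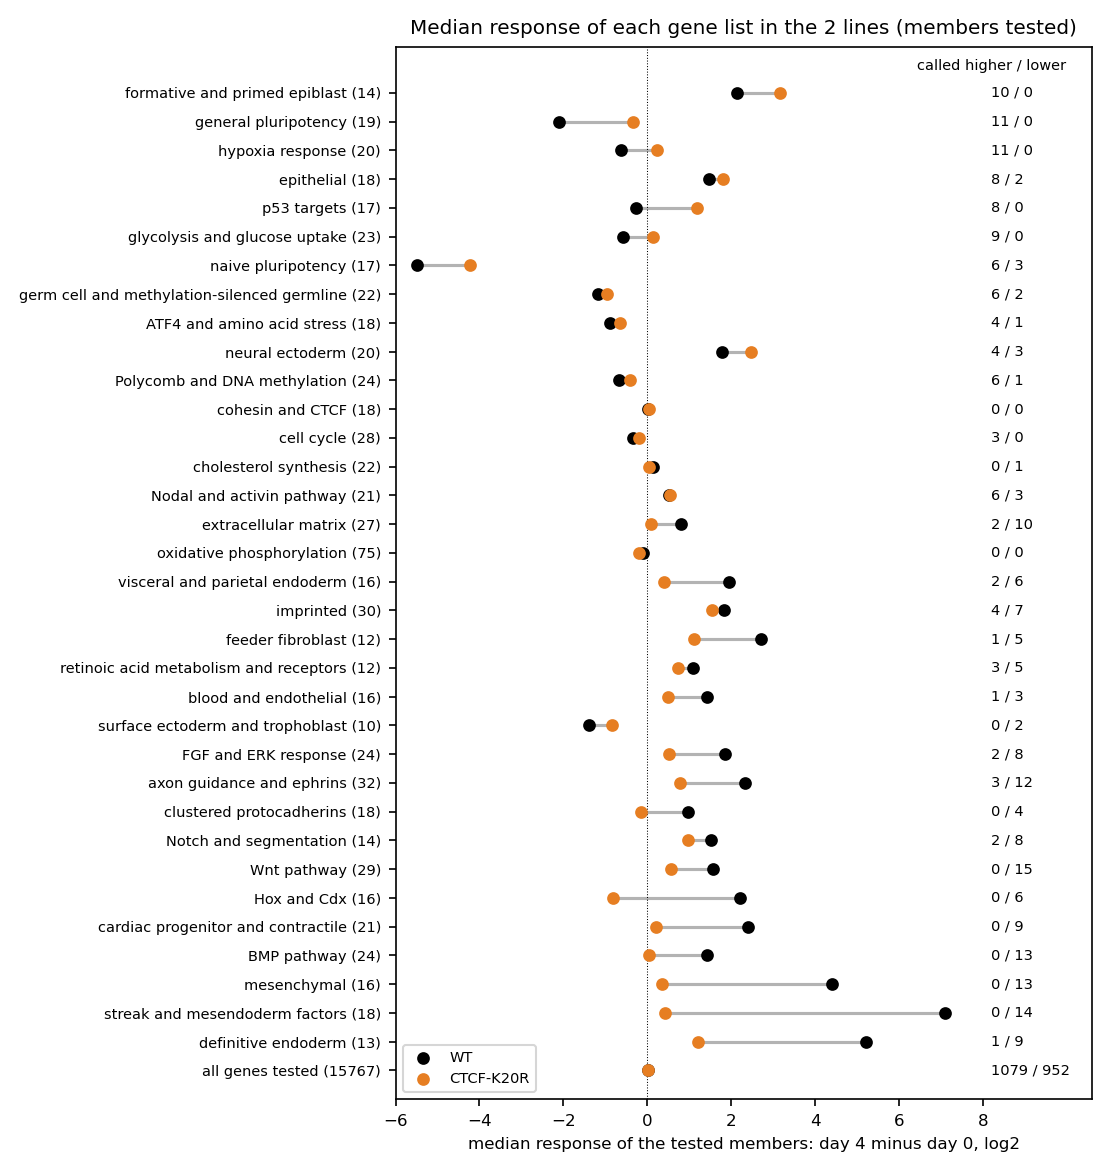
Median response (log2, day 4 over day 0) of each gene list in WT and in CTCF-K20R, ordered by the median difference in response, with the numbers of members called higher and lower beside it. Definitive endoderm and streak genes lie at one end with medians of -5.26 and -5.08, and formative and general pluripotency genes lie at the other with 1.62 and 1.56.

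Among all called genes that averaged 100 normalized counts or more, the 12 with the lowest difference were Lhx1, Mesp1, Cyp26a1, Gm15284, Aplnr, Msgn1, Cer1, Pcdh7, Samd3, Klhl6, Gata6 and Gsc, 8 of which belong to the lists above. Pcdh7, a protocadherin outside the clusters, was under the limit at day 0 and reached 3585 and 3612 in WT and 16.7 and 4.97 in CTCF-K20R at day 4 (difference -8.45 ± 1.07, adjusted p = 0.00456). The other 3, Gm15284 (-9.72), Samd3 (-8.44) and Klhl6 (-8.18), were at or under the limit in the CTCF-K20R libraries of day 4 or close to it. Among the 12 with the highest difference were Gm14440, Enpp2, Gm5884, Kirrel2, Sox3, Gm6763, Aass, Nphs1, Cxcl12 and Utf1. Kirrel2 and Nphs1, neighbours on chromosome 7 that encode the adhesion partners of the kidney slit diaphragm, were both higher. Nphs1 went from 1591 and 1641 to 17.9 and 18.9 in WT and from 1222 and 1262 to 507 and 389 in CTCF-K20R (difference 4.90 ± 0.24, adjusted p = 0.000289). Kirrel2 went from 905 and 922 to 6.81 and 6.49 in WT and from 661 and 542 to 168 and 228 in CTCF-K20R (difference 5.29 ± 0.34, adjusted p = 0.000636). Cxcl12, the ligand of Cxcr4, went from 61.8 and 68.4 to 148 and 149 in WT and from 42.8 and 38.4 to 2519 and 2646 in CTCF-K20R (difference 4.78 ± 0.22, adjusted p = 0.000247), so that ligand and receptor had opposite differences. Aass, an enzyme of lysine breakdown, went from 319.7 and 314 to 16.2 and 16.8 in WT and from 126 and 119.7 to 189 and 222 in CTCF-K20R (difference 4.92 ± 0.30, adjusted p = 0.000535). Gm14440 and Enpp2 were not called without either CTCF-K20R day 4 library in turn (adjusted p of 0.0718 to 0.114). Sox3 was not called without CTCF-K20R day 4 replicate 2 (adjusted p = 0.0509). Gm5884 was not called without CTCF-K20R day 0 replicate 1 (adjusted p = 0.122). Gm5884 was not called without CTCF-K20R day 0 replicate 2 (adjusted p = 0.121). Gm5884 was not called without WT day 0 replicate 2 (adjusted p = 0.0642). Gm5884 was not called without WT day 4 replicate 1 (adjusted p = 0.0514).

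Of the genes with an average of 100 normalized counts or more that moved by more than 1 in opposite directions, the 6 with the lowest differences were Mesp1, Msx2, Pdgfra, Col13a1, Hs3st3b1 and Fgf3, and among the 6 with the highest were Gm6763, Utf1, 2410007B07Rik, Sned1 and Myb. Col13a1, a transmembrane collagen, went from 96.5 and 87.6 to 619 and 611 in WT and from 89.5 and 72.7 to 3.21 and 5.999 in CTCF-K20R (difference -6.64 ± 0.58, adjusted p = 0.00142). Hs3st3b1, an enzyme that modifies heparan sulfate, went from 66.7 and 71.8 to 1209 and 1200 in WT and from 74.0 and 80.7 to 9.27 and 19.6 in CTCF-K20R (difference -6.53 ± 0.64, adjusted p = 0.00199). Myb, a factor of blood progenitors and other dividing cells, went from 482 and 480.1 to 133 and 136 in WT and from 373 and 392.5 to 1195 and 1267 in CTCF-K20R (difference 3.51 ± 0.15, adjusted p = 0.000195). All CTCF-K20R EB libraries lay on the other side of their day 0 libraries from WT for each of these 3 genes. For Mesp1 the CTCF-K20R part of the movement lay near the limit of detection, as given below. Sned1 was not called without either CTCF-K20R day 4 library in turn (adjusted p of 0.066 to 0.0751).

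The median gene of chromosomes 8 and 14 differed between the lines on both days, with a median difference in response near 0. Whether these shifts covered the whole chromosome or a part of it was not tested. On chromosome 8 the median gene stood 0.27 higher in CTCF-K20R at day 0 and 0.31 higher at day 4 on the log2 scale, with a median difference in response of 0.02. On chromosome 14 the median gene had values of -0.28 and -0.31, with 81 genes called at day 0, and a median difference in response of 0.00. The share of genes called with a difference in response lay between 10.1% on chromosome 14 and 18.2% on chromosome X among the autosomes and X, beside 12.9% over all genes.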

How the data were processed

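RNA of 8 samples was sequenced as mRNA libraries. Per the study's methods, the authors trimmed reads with Trim Galore, quantified transcripts with Salmon on mm10 and summarised them to genes with tximport. The deposited table holds one signal value per gene and library, DESeq2-normalized counts that the authors scaled over all 8 libraries. The annotation release and the strand setting are not given in the sources used here. These are estimated counts after scaling and are not whole multiples of 1 read for most genes, so no count model was run. The commonest low value of a library was taken as the worth of 1 read, and 3 of it, 2.43 to 3.44 normalized counts, as the limit of detection, which covers counting error only. The same worth gave the sampling noise between libraries.

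Gene identifiers were matched to GENCODE on GRCm38 for 17948 of 18094 genes. A pseudocount of 1 was added before taking log2, a scale on which the fold change of low genes is understated, and limma 3.58.1 ran under R 4.3.3. A gene entered the test where it averaged 10 normalized counts or more, so a gene low in the other groups could enter through a single group where it was high. Each WT pair differed by less than the sampling noise, was averaged and counted as 1 sample a day, which left 6 samples with 2 residual degrees of freedom. The fit used a mean for each group and a mean-variance trend, with Benjamini-Hochberg adjustment over all 15767 genes tested. A gene was called at an absolute difference above 1 and an adjusted p under 0.05, two-sided. The WT response therefore has no p of its own.

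The genes and the 37 lists were chosen with earlier results of these data known, so lists are described by counts and medians. Some genes are in more than 1 list, such as Mesp1 (streak and cardiac) and Pdgfra (cardiac and mesenchymal). Counts of such lists are therefore not separate results. Genes named were Ctcf, the 12 called genes per direction with the largest difference, a mean of at least 100 normalized counts and all CTCF-K20R library differences on one side of the WT ones, up to 4 members per list with the largest difference together with members of a defining role whatever their value, and up to 6 genes per direction in which the lines moved apart by more than 1 each. Genes of a list named beside these were chosen after their values were seen. A few genes that meet this rule are not reported here. Promoter windows came from RefSeq. The share of motif matches among called genes was void because under 80% of the called symbols had a window.

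The fit was tested on simulated data. Alternatives varied the pseudocount, the filter on low values, the scaling, the variance trend, the block, the thresholds and the libraries. One, with values under the limit of detection set to it, was chosen after seeing the data.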

Additional observations from a re-analysis of the deposited data

Results flagged for a closer look

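Both lines moved by more than 1 on the log2 scale and in opposite directions for 26 genes of the naming rule or the lists, and the difference in response was itself tested in the limma fit and called. In 17 of them the WT level went up and the CTCF-K20R level went down. The streak and mesoderm genes among these were Mesp1 (-11.01), Msx2 (-7.15), Pdgfra (-6.95), Fgf3 (-6.34), Nog (-5.25), Aldh1a2 (-4.29) and Prdm1 (-3.22). Hoxa3, a Hox gene of the branchial region, differed by -7.70, and Nrp2, a semaphorin receptor, by -6.24. The others were Col13a1 (-6.64), Hs3st3b1 (-6.53), Cited1 (-4.59), Efnb1 (-3.47), Hhex (-3.89), Smad6 (-2.75), Crabp1 (-2.44) and Usp29 (-2.52). The CTCF-K20R levels of Mesp1, Hoxa3 and Aldh1a2 at day 4 were under the limit of detection. Mesp1 and Hoxa3 also started near that limit in CTCF-K20R, at 5.57 and 5.61 for Mesp1 and 3.86 and 4.72 for Hoxa3. The CTCF-K20R fall of Mesp1 was at least 1.63-fold, so its size beyond 1 depends on the pseudocount.

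In the other 9 genes the WT level went down and the CTCF-K20R level went up. Utf1, of undifferentiated cells, differed by 4.54, Lefty1, the Nodal inhibitor, by 2.58 and Pdk1, of glucose use, by 2.12. Myb, a factor of blood progenitors and other dividing cells, differed by 3.51. The remaining ones were Pax6 (3.38), Thy1 (3.44), Sned1 (3.61), 2410007B07Rik (4.33) and Gm6763 (5.04). Without either CTCF-K20R day 4 library in turn, Aldh1a2, Usp29, Smad6, Crabp1, Pax6 and Sned1 were not called. Usp29 was not called without either CTCF-K20R day 0 library in turn, nor Smad6 without day 0 replicate 2.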

How the results depend on the processing

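The 1079 genes called higher and 952 called lower became 1709 and 1631 with all 8 libraries as separate samples. With an adjusted p under 0.05 alone they were 2315 and 1885, with an adjusted p under 0.01 they were 653 and 460, and with a difference above 2 they were 451 and 491. With all 8 libraries as separate samples, list counts also moved from 0 to 3 higher for cardiac genes, from 1 to 3 for blood and endothelial genes and for the 2-cell-like state, and from 4 to 9 lower for clustered protocadherins and 3 to 5 for neural ectoderm. Leaving out 1 library at a time gave 471 to 1090 higher and 410 to 969 lower, with 499 and 410 without CTCF-K20R day 4 replicate 1 and 471 and 414 without replicate 2. Deviations of same-numbered libraries of a line correlated between the days at -0.01 in CTCF-K20R and 0.02 in WT. Whether same-numbered WT and CTCF-K20R libraries share more than that number was not tested. A replicate block on the 6 samples gave 1055 and 934, and on all 8 libraries 1708 and 1617. With equal library totals the median difference of all genes moved from 0.02 to -0.07, and 46.5% of calls were higher instead of 53.1%. Of the 126 named genes called, 107 to 126 were called under each other setting that tested all of them, 89 to 126 with 1 library left out, and 0 reversed. Prrx1 lost its call under the replicate block on the 6 samples. With a pseudocount of 0.1, Cer1, Hoxd3, Pcdhgb4 and Prrx1 were not called. With values under the limit of detection set to it, Gm5884, Dll1, Slc25a31 and Pcdhgb4 were not called, and Wnt8a went from -1.45 to 0.14. The median of visceral and parietal endoderm genes was 1.12 with no filter on low values instead of -0.23. The first median also takes in members under the filter, while the second is over the 16 tested, so the gene sets differ. The median of cell cycle genes, 0.04, was -0.03 with quantile normalization and -0.04 with equal library totals, and that of cohesin and CTCF genes, 0.04, was -0.04 with equal totals. The cause of the other changes was not tested. The pair of CTCF-K20R libraries per day and the limit of detection set what could be called among low genes.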
